A study of Mus musculus with 10 samples.

Results

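The genes of antigen presentation and of dendritic cells were followed in bone marrow (BM) of mice transplanted with fetal liver hematopoietic stem cells (FL-HSCs). Members were the array probe sets annotated with exactly 1 gene whose symbol starts with H2-, the prefix of the mouse major histocompatibility complex (MHC), together with 16 genes chosen by name (Cd74, Ciita, B2m, Tap1, Tap2, Tapbp, Ctss, Cd40, Cd80, Cd86, Itgax, Zbtb46, Batf3, Irf8, Clec9a and Siglech). A gene with more than 1 probe set (Cd80) was represented by the brightest on average. This gave 45 genes of the 19938 genes measured, of which 29 carried an H2 symbol. By role, 11 belonged to class II presentation, 24 to class I presentation, 3 to co-stimulation and 6 to dendritic cells. The remaining gene, H2-Ke6, lies in the MHC but encodes an enzyme of steroid and fatty acid metabolism. Of the 45 genes, 30 had a mean above the median of all probe sets (4.74 on the log2 scale), and 15, of which 12 are class I genes, lay below it.

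MHC class I molecules pair with beta-2-microglobulin and show peptides made inside the cell to CD8 T cells, after TAP transporters carry those peptides into the endoplasmic reticulum and tapasin helps to load them. MHC class II molecules are found mainly on B cells, dendritic cells and macrophages, where the invariant chain Cd74 guides them to the endosome, cathepsin S trims that chain, H2-DM loads peptide, and CIITA switches on the whole set of genes. A T cell also needs a co-stimulatory signal from CD80 and CD86, and CD40 on the presenting cell receives help from the T cell. In BM most cells with class II are of the B lineage, and dendritic cells are a small population.

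Marrow of VD(-) FL-HSC recipients (5 samples) was set against that of VD(+) FL-HSC recipients (5 samples). VD(-) donors were C57BL/6 CD45.2+ embryos from dams kept on a vitamin D-deficient diet from before mating, VD(+) donors were such embryos from dams on a sufficient diet, and both were transplanted into lethally irradiated CD45.1+ C57BL/6 mice that were themselves vitamin D-sufficient. The labels give the strain C57BL6, an age of 8 weeks and both sexes for all samples, and do not say whether the age was that at transplantation or at collection. In the paper the recipients were 8 weeks old at transplantation, so marrow was collected at a later age. It gives 2 different times after transplantation for these arrays. Y-linked signal was found on some VD(-) arrays and on no VD(+) array, as given below. Each group held 3 single samples and 2 pools. What the pools were made of is not given, so the p-values measure the spread between these samples, which may be partly technical. Because whole marrow was measured, fewer cells of a type and less RNA per cell cannot be told apart. One label names BM macrophages, but 12 neutrophil genes averaged 11.3 to 11.8 on VD(-) arrays and 11.4 to 11.7 on VD(+) arrays, and 5 erythroid genes averaged 9.38 to 9.65 on VD(-) arrays and 9.33 to 9.58 on VD(+) arrays, so the RNA carried the genes of whole marrow. Values are log2 values, and differences are VD(-) less VD(+). Arrays are named single samples 1, 2 and 3 and pools 1 and 2, and lists of 5 values keep that order.

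The class II genes share a promoter design, in which an X box bound by the RFX complex and a Y box bound by NF-Y together recruit CIITA. Stretches of promoter from the RefSeq table of build GRCm38.p6 are shown for the class II members with the largest differences (H2-Eb2, H2-Oa and H2-Ob) beside those of H2-Eb1 and H2-Aa, which encode classical class II chains. All are written 5′ to 3′ on the strand of the gene. Capitals mark GCAAC, a core of the X box, and GATTGG, which holds the Y box (CCAAT on the other strand).
H2-Eb2: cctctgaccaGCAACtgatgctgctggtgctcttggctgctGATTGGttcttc
H2-Oa: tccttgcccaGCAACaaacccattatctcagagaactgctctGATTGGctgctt
H2-Ob: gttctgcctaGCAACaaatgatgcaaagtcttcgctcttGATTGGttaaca
H2-Eb1: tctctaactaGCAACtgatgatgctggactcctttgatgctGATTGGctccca
H2-Aa: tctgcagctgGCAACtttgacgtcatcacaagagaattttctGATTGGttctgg
The stretches lie at chr17:34325533-34325585 (plus strand) for H2-Eb2, chr17:34092293-34092346 (plus) for H2-Oa, chr17:34238808-34238858 (plus) for H2-Ob, chr17:34305766-34305818 (plus) for H2-Eb1 and chr17:34287861-34287914 (minus) for H2-Aa. GCAAC began 132 bases before the start site of the promoter entry in H2-Eb2, 76 in H2-Oa, 87 in H2-Ob, 91 in H2-Eb1 and 81 in H2-Aa. Between both motifs lay 24 to 27 bases. For H2-Eb2 the annotated gene start (chr17:34325503) is a different one and lies before the stretch shown. Searched on both strands with a gap of 24 to 30 bases, the pair was found in 5 of the 7 class II members that the table holds, in 0 of 18 class I members, and in 53 of all 32851 promoters (0.161%). CCAAT alone was in 37.4% of promoters. The members with the largest differences and the classical chains thus held the same pair of motifs, and a match is a description of the letters, not of binding.

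Class I promoters are known for an interferon response element next to the binding site of NF-kappaB. Capitals mark TTTCACTTC, the core of that element, in 2 Q region members whose values are described below and in H2-M3, shown because it holds the same 9 letters.
H2-Q4: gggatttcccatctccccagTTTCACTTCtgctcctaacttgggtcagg
H2-Q10: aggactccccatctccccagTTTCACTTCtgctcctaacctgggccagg
H2-M3: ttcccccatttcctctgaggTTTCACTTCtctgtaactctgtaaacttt
They lie on the plus strand at chr17:35379444-35379492 (H2-Q4), chr17:35469914-35469962 (H2-Q10) and chr17:37270113-37270161 (H2-M3). On either strand, TTTCACTTC was found in 3 of the 18 class I members in the table, in 0 of 7 class II members and in 166 of 32851 promoters (0.505%). The stretches of H2-Q4 and H2-Q10 were the same at 44 of 49 bases, and those of H2-Eb2 and H2-Eb1 at 39 of 53.

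Over all 45 members the differences were small, with -0.46 on the log2 scale (H2-Oa) as the largest. The class II genes H2-Eb2, H2-Oa and Ciita, the class I genes H2-Q4, H2-Q10, H2-Q5 and H2-M10.5 and the co-stimulatory receptor Cd40 were lower in VD(-) marrow at a nominal p under 0.05, and Cd86 and Zbtb46 were higher. At an adjusted p under 0.05 (limma, Benjamini-Hochberg over all probe sets), 0 of the 45 members differed, under limma and under the methods' t-test alike, where 0.0903% of all genes did, and adjusted p-values of the members ran between 0.355 and 0.995. At a nominal p under 0.05, 8 members (17.8%) were lower in VD(-) marrow, where 2.95% of all genes were, and 2 members (4.44%) were higher, where 4.05% of all genes were. The share of members higher was therefore close to that of all genes. These shares of all genes, 2.95% lower and 4.05% higher, are the ones to set beside the counts of each class and list below. The count of lower members was 5 without VD(+) single sample 3 and 5 without VD(-) pool 2, and the count of higher members was 0 without VD(+) single sample 1 or VD(-) pool 2 3 without VD(+) single sample 3, and 1 without VD(+) single sample 2, VD(+) pool 1, VD(+) pool 2, VD(-) single sample 1 or VD(-) single sample 2. Without overlap between the 5 arrays of each group, 3 members were lower (H2-Eb2, H2-Q10 and H2-Q5), where 0.632% of all genes were, and 0 were higher, where 1.09% were. The median difference of the members was -0.08, with 31 of 45 below 0, and that of all genes was 0.00. Members sit close together in the MHC and several are paralogs, so they are not independent of each other.

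**Figure D1:**
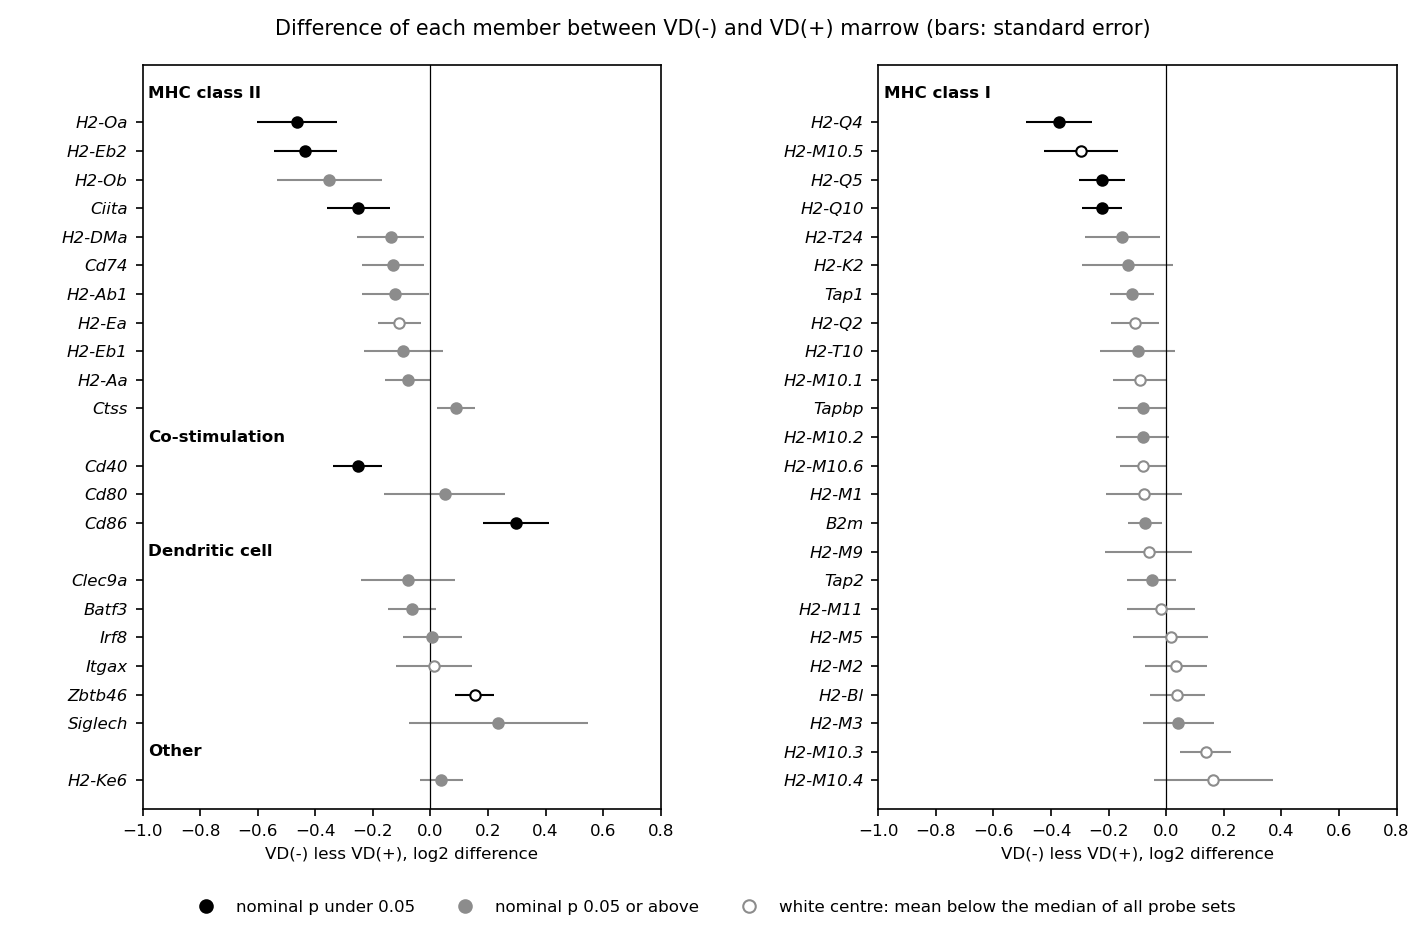
Log2 difference (VD(-) less VD(+), x axis) of each of the 45 members with its standard error (bars), grouped by role. Black points have a nominal p under 0.05, and white centres mark the 15 members below the median of all probe sets. Of the class II genes, 10 of 11 lie left of 0, and H2-Oa and H2-Eb2 lie farthest left, at -0.46 and -0.43.

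In class II, H2-Eb2, H2-Oa and Ciita were lower in VD(-) marrow at a nominal p under 0.05, and 10 of the 11 genes lay below 0 with a median of -0.13. The count lower was 3 of 11 (27.3%), where 2.95% of all genes were, and 0 were higher, where 4.05% of all genes were. Of all genes, 9903 of 19938 lay below 0. The class II median was -0.08 without VD(-) single sample 2, and it was -0.19 between the single samples and -0.07 between the pools.

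H2-Eb2 encodes a second class II beta chain of the E type, a close relative of H2-Eb1. It had 4.42, 4.74, 4.87, 4.89 and 4.98 in VD(-) marrow, against 5.05, 5.15, 5.24, 5.22 and 5.41 in VD(+) marrow. All 5 VD(-) arrays lay below the lowest VD(+) array. The difference was -0.43 (SE 0.11), a ratio of 0.74, with a nominal p of 0.00249 and an adjusted p of 0.355 by limma. An exact two-sided permutation test gave 0.00794, the smallest p that 5 arrays against 5 allow. It was -0.47 between the single samples and -0.38 between the pools. Under all 22 alternatives tried, H2-Eb2 kept a nominal p under 0.05, with differences between -0.48 and -0.35.

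H2-Oa and H2-Ob encode both chains of H2-O, a class II-like protein of B cells and some dendritic cells that restrains peptide loading by H2-DM. H2-Oa had 6.85, 6.88, 7.14, 7.11 and 6.90 in VD(-) marrow, against 7.42, 7.10, 7.71, 7.18 and 7.79 in VD(+) marrow. The groups overlapped only because VD(+) single sample 2 lay just under the 2 highest VD(-) arrays. The difference was -0.46 (SE 0.14), a ratio of 0.73, with a nominal p of 0.00708, an adjusted p of 0.517 by limma and an exact permutation p of 0.0238. H2-Ob had 7.57, 7.26, 8.04, 7.79 and 7.90 in VD(-) marrow, against 7.83, 7.60, 8.40, 8.21 and 8.28 in VD(+) marrow. Its difference of -0.35 (SE 0.18) missed the threshold (nominal p 0.0807), with an SD of 0.30 in VD(-) marrow and 0.33 in VD(+) marrow. The nominal p of H2-Ob was under 0.05 without VD(+) single sample 2 (-0.47, p 0.0211), without VD(-) single sample 3 (-0.43, p 0.0439), with array weights (-0.40, p 0.0467) and between the pools alone (-0.40, p 0.0218), so its call depended on the arrays and weights used.

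Ciita encodes the master coactivator of class II genes. It had 5.61, 5.34, 5.70, 5.72 and 5.39 in VD(-) marrow, against 5.53, 5.73, 5.96, 5.83 and 5.96 in VD(+) marrow. VD(+) single sample 1 lay among the VD(-) arrays, and the other VD(+) arrays lay above all VD(-) arrays. The difference was -0.25 (SE 0.11), with a nominal p of 0.0450, an adjusted p of 0.692 by limma and an exact permutation p of 0.0635. Ciita kept a nominal p under 0.05 without VD(+) single sample 1 (-0.32), VD(-) single sample 3 (-0.29) or VD(-) pool 1 (-0.29), and lost it without any of the other 7 arrays, where it lay between -0.27 and -0.20.

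The classical class II chains and their chaperones did not pass. H2-Aa, the alpha chain of the A molecule, had 9.78, 9.53, 9.78, 9.91 and 9.74 in VD(-) marrow, against 9.72, 9.79, 9.84, 9.87 and 9.92 in VD(+) marrow. Its partner H2-Ab1 had 9.13, 8.80, 9.43, 9.38 and 9.31 in VD(-) marrow, against 9.40, 9.20, 9.29, 9.33 and 9.45 in VD(+) marrow. H2-Eb1, the beta chain of the E molecule, had 8.04, 7.55, 8.25, 8.29 and 8.09 in VD(-) marrow, against 8.04, 8.04, 8.24, 8.04 and 8.32 in VD(+) marrow. In all 3 genes the groups overlapped, and VD(-) single sample 2 was the lowest of the 10 arrays. The differences were -0.08 (SE 0.08, nominal p 0.358) for H2-Aa, -0.12 (SE 0.12, p 0.318) for H2-Ab1 and -0.09 (SE 0.14, p 0.506) for H2-Eb1.

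Cd74, the invariant chain, had 9.52, 9.51, 9.92, 9.63 and 9.78 in VD(-) marrow, against 9.89, 9.66, 10.05, 9.62 and 9.79 in VD(+) marrow, a difference of -0.13 (SE 0.11, p 0.254). It was -0.22 between the single samples and 0.00 between the pools. H2-DMa, a chain of the peptide loader H2-DM, differed by -0.14 (SE 0.12, p 0.263). Ctss, cathepsin S, was the only class II member above 0, at 9.65, 9.64, 9.65, 9.78 and 9.62 in VD(-) marrow, against 9.47, 9.54, 9.68, 9.66 and 9.56 in VD(+) marrow (0.09, SE 0.07, p 0.204). H2-Ea averaged 3.13 ± 0.12 in VD(-) marrow and 3.24 ± 0.07 in VD(+) marrow (SD, 5 arrays each), below the median of all probe sets. C57BL/6 mice are known to carry a null H2-Ea and so to lack the E molecule on the cell surface. The 8 class II members that did not pass ran between -0.35 and 0.09, and 7 of them lay below 0.

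Of the genes around class II presentation, 12 of 13 listed were measured. Here 2 were higher in VD(-) marrow at a nominal p under 0.05, 0 were lower, and the median was 0.08. Ifi30, the lysosomal thiol reductase GILT that unfolds antigens, had 8.68, 8.62, 8.75, 8.81 and 8.61 in VD(-) marrow, against 8.45, 8.59, 8.29, 8.55 and 8.44 in VD(+) marrow. The 5 VD(-) arrays all lay above the VD(+) arrays, and the difference was 0.23 (SE 0.08, nominal p 0.0110, adjusted p 0.547). Ctsd, the lysosomal protease cathepsin D, was higher by 0.15 (SE 0.07, p 0.0469). Ctsb and Ctsl, the cathepsins B and L, differed by 0.17 (p 0.0672) and 0.30 (p 0.118). The 3 subunits of RFX lay between -0.16 and 0.06, and none of them passed.

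**Figure D2:**
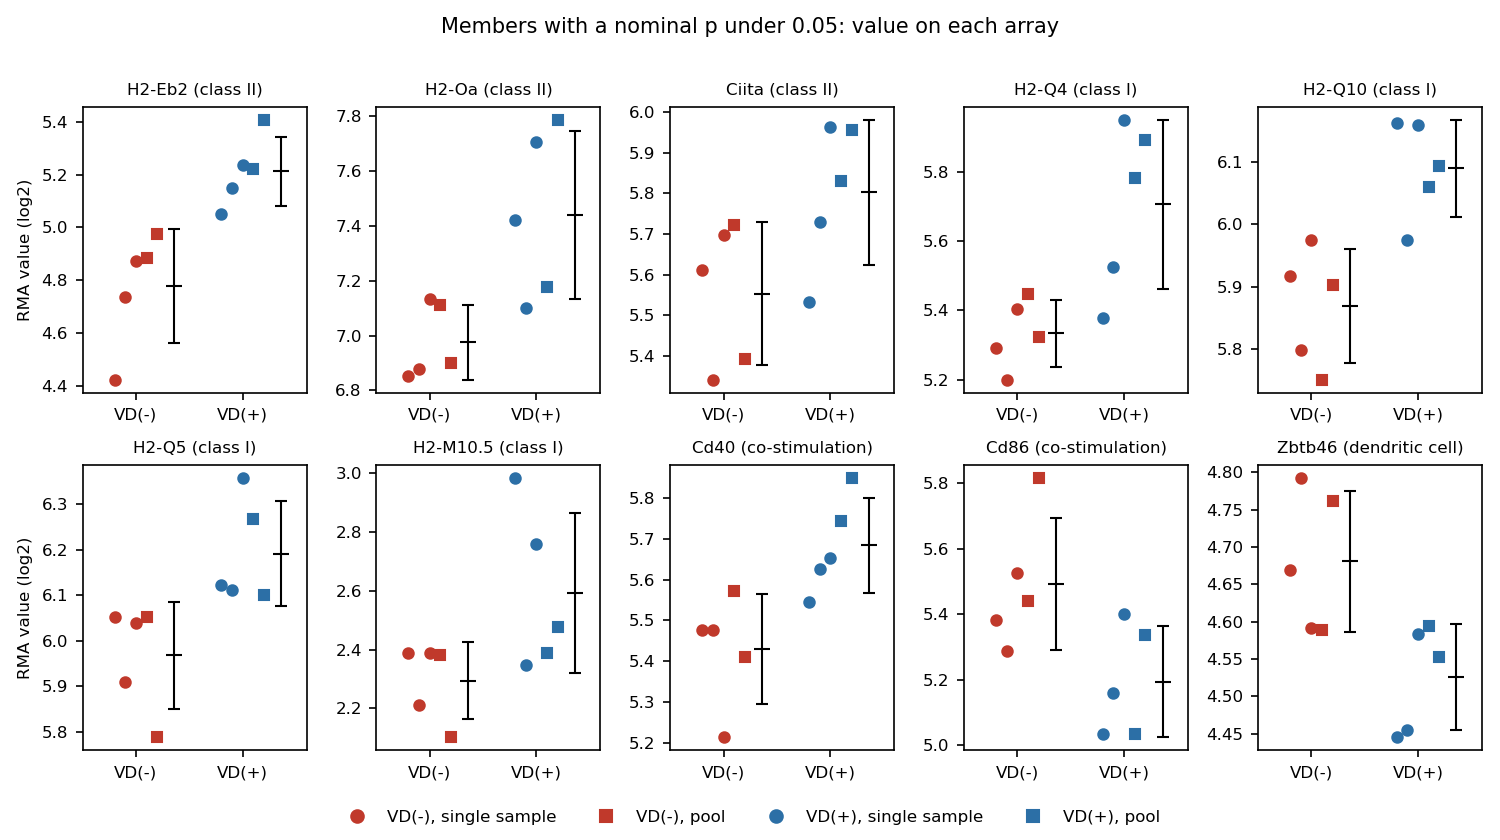
RMA value (log2, y axis) on each array for the 10 members with a nominal p under 0.05, VD(-) left of VD(+). Circles are single samples, squares are pools, and the black mark and bar give the mean and SD of 5 arrays. Groups do not overlap in H2-Eb2, H2-Q10 and H2-Q5, and in the other 7 members at least 1 array of one group lies within the other.

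In class I, 4 of 24 genes (16.7%) were lower in VD(-) marrow at a nominal p under 0.05, where 2.95% of all genes were. In the other direction 0 were higher, where 4.05% of all genes were. Of the 4 lower genes, 3 were genes of the Q region, a cluster of class I-like genes of limited variation. The 4 Q region members all lay below 0 with a median of -0.22, against -0.07 for the other 20 class I members. Averaged over the 4 genes, the arrays had 5.29, 5.18, 5.31, 5.27 and 5.21 in VD(-) marrow, against 5.38, 5.35, 5.66, 5.54 and 5.49 in VD(+) marrow. No VD(-) array reached the lowest VD(+) array in this average. The Q region is a part of class I and was not among the roles by which members were divided. Of its 4 genes, 3 were lower one by one on these same arrays, so the average is no support beyond those genes.

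H2-Q4, a Q region class I gene, had 5.29, 5.20, 5.40, 5.45 and 5.32 in VD(-) marrow, against 5.38, 5.53, 5.95, 5.78 and 5.89 in VD(+) marrow. Only VD(+) single sample 1 lay within the VD(-) range. The difference was -0.37 (SE 0.11), a ratio of 0.77, with a nominal p of 0.00777, an adjusted p of 0.523 by limma and an exact permutation p of 0.0238. It kept a nominal p under 0.05 without each array in turn, with differences between -0.45 and -0.31.

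H2-Q10 encodes a secreted class I molecule known mainly from liver. It had 5.92, 5.80, 5.97, 5.75 and 5.90 in VD(-) marrow, against 6.16, 5.98, 6.16, 6.06 and 6.09 in VD(+) marrow. The highest VD(-) array (5.975) and the lowest VD(+) array (5.975) were nearly equal, so the groups were apart by very little. The difference was -0.22 (SE 0.07), with a nominal p of 0.00851, an adjusted p of 0.537 by limma and an exact permutation p of 0.00794. It kept a nominal p under 0.05 without each array in turn.

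H2-Q5 is a transcribed pseudogene in the gene table. It had 6.05, 5.91, 6.04, 6.05 and 5.79 in VD(-) marrow, against 6.12, 6.11, 6.36, 6.27 and 6.10 in VD(+) marrow, without overlap. The difference was -0.22 (SE 0.08), with a nominal p of 0.0198, an adjusted p of 0.618 by limma and an exact permutation p of 0.00794. Without VD(+) single sample 3 the nominal p was 0.0511 (-0.18), and without VD(-) pool 2 it was 0.0519 (-0.18). H2-Q2 lay below the median of all probe sets and differed by -0.11 (SE 0.08, p 0.220). A probe set listed jointly for H2-Q6 and H2-Q8, which is no member, ran from 7.33 to 8.00 in VD(-) marrow, against 7.97 to 8.10 in VD(+) marrow (-0.31, SE 0.11, nominal p 0.0180, adjusted p 0.604). Genes of the Q region are near-identical copies in places, so their probe sets may share transcripts.

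The genes for classical class I chains, H2-K1 and H2-D1, are represented only by probe sets listed for several genes, and no value is given to either gene. Of these, a probe set listed jointly for H2-D1, LOC547349 and H2-K1 averaged 10.18 ± 0.05 in VD(-) marrow and 10.29 ± 0.07 in VD(+) marrow (SD, 5 arrays each), a difference of -0.11 (SE 0.06, p 0.108). Another differed by -0.11 (SE 0.07, p 0.146). Of the 8 probe sets that list an H2 symbol among several genes, 7 lay below 0, 1 was lower at a nominal p under 0.05 and 0 were higher.

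B2m, the common light chain, had 11.81, 11.85, 11.86, 11.82 and 11.80 in VD(-) marrow, against 11.83, 11.94, 11.85, 12.00 and 11.88 in VD(+) marrow. The SD was 0.03 in VD(-) marrow and 0.07 in VD(+) marrow, and the difference was -0.07 (SE 0.06, nominal p 0.243). Tap1, a subunit of the peptide transporter, had 7.03, 6.90, 7.19, 6.89 and 7.06 in VD(-) marrow, against 7.22, 7.03, 7.08, 7.15 and 7.19 in VD(+) marrow (-0.12, SE 0.08, p 0.147). Its partner Tap2 differed by -0.05 (SE 0.08, p 0.564) and Tapbp, tapasin, by -0.08 (SE 0.09, p 0.360). The groups overlapped in all 4 genes, with all 4 differences below 0.

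H2-T24, a class I gene of the T region, had 7.22, 7.57, 7.90, 7.19 and 7.63 in VD(-) marrow, against 7.73, 7.60, 7.60, 7.73 and 7.61 in VD(+) marrow. The VD(+) arrays lay close together, while VD(-) single samples 1 and 2 and pool 1 lay below and VD(-) single sample 3 above them (-0.15, SE 0.13, p 0.267). H2-M3, which presents formylated peptides of bacteria and mitochondria, differed by 0.04 (SE 0.12, p 0.737). Of the 12 members of the M region, 10 lay below the median of all probe sets. H2-M10.5, one of the M10 genes known from sensory neurons of the vomeronasal organ, had 2.39, 2.21, 2.39, 2.38 and 2.10 in VD(-) marrow, against 2.99, 2.35, 2.76, 2.39 and 2.48 in VD(+) marrow (-0.30, SE 0.13, nominal p 0.0410, adjusted p 0.683). This lies near the lowest values of the array, and the call was lost without VD(+) single sample 1 (-0.20), VD(+) single sample 3 (-0.26), VD(-) single sample 2 (-0.28) or VD(-) pool 2 (-0.25). The 20 class I members that did not pass ran between -0.15 and 0.16.

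Of 15 listed genes around class I presentation, such as proteasome subunits, chaperones and Nlrc5, the coactivator of class I genes, 14 were measured. None passed a nominal p under 0.05 with limma in either direction, and the median was -0.01. The smallest nominal p-values were those of the chaperone calreticulin, Calr (-0.11, p 0.228), of the class I-like Mr1, which presents vitamin B metabolites (0.19, p 0.234), of the peptide-trimming Erap1 (0.10, p 0.294) and of the proteasome activator Psme2 (0.10, p 0.314).

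In co-stimulation, Cd40 was lower and Cd86 higher in VD(-) marrow at a nominal p under 0.05. Cd40, the receptor for T cell help on B cells, dendritic cells and macrophages, had 5.48, 5.48, 5.21, 5.57 and 5.41 in VD(-) marrow, against 5.55, 5.63, 5.65, 5.74 and 5.85 in VD(+) marrow. Only VD(-) pool 1 reached into the VD(+) range, above VD(+) single sample 1. The difference was -0.25 (SE 0.09), with a nominal p of 0.0134, an adjusted p of 0.565 by limma and an exact permutation p of 0.0159. Cd40 kept a nominal p under 0.05 without each array in turn, between -0.29 and -0.20.

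Cd86, a ligand of CD28 on dendritic cells, macrophages and activated B cells, had 5.38, 5.29, 5.53, 5.44 and 5.82 in VD(-) marrow, against 5.03, 5.16, 5.40, 5.04 and 5.34 in VD(+) marrow. VD(+) single sample 3 and pool 2 lay within the VD(-) range. The difference was 0.30 (SE 0.11), a ratio of 1.23, with a nominal p of 0.0244, an adjusted p of 0.634 by limma and an exact permutation p of 0.0476. Without VD(+) single sample 1, VD(+) pool 1 or VD(-) pool 2 it was 0.26, 0.26 or 0.22 and its nominal p was 0.0576, 0.0595 or 0.0564.

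Cd80, the other ligand of CD28, had 5.26, 5.99, 6.18, 5.02 and 5.88 in VD(-) marrow, against 5.58, 5.52, 5.84, 5.72 and 5.42 in VD(+) marrow. The VD(-) arrays enclosed the VD(+) arrays from both sides, with an SD of 0.50 in VD(-) marrow and 0.16 in VD(+) marrow. The difference was 0.05 (SE 0.21, p 0.817), and 0.06 (SE 0.10, p 0.550) on the second probe set of Cd80. The 9 measured T cell markers of 11 listed averaged 5.63, 6.34, 6.78, 5.72 and 6.41 on the VD(-) arrays, low in single sample 1 and pool 1, the same arrays that were low in Cd80. The VD(+) arrays had 6.06, 5.91, 6.35, 6.02 and 6.31. The part of T cell RNA in the spread of Cd80 was not tested.

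Of 15 other genes of co-stimulation and inhibition, 1 was higher and 0 lower, and the median was -0.02. The one was Ctla4, an inhibitory receptor of T cells for CD80 and CD86, at 4.40, 4.95, 4.56, 4.83 and 5.04 in VD(-) marrow, against 4.66, 4.14, 4.58, 4.21 and 4.11 in VD(+) marrow (0.41, SE 0.15, nominal p 0.0208, adjusted p 0.624). The next smallest p-values were those of Icosl, the ligand of ICOS (-0.21, p 0.0688), Tnfsf9, the ligand of 4-1BB (0.56, p 0.0804), and Pdcd1lg2, the inhibitory ligand PD-L2 (0.15, p 0.219).

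The 6 dendritic cell members had a median of 0.01, with 1 higher at a nominal p under 0.05 and 0 lower. Zbtb46, a transcription factor of classical dendritic cells, had 4.67, 4.79, 4.59, 4.59 and 4.76 in VD(-) marrow, against 4.45, 4.46, 4.58, 4.59 and 4.55 in VD(+) marrow. The difference was 0.15 (SE 0.07), with a nominal p of 0.0460, an adjusted p of 0.693 by limma and an exact permutation p of 0.0238. Its mean lay below the median of all probe sets. The call was lost without 6 of the 10 arrays (VD(-) single sample 1, 2 or pool 2, VD(+) single sample 1, 2 or pool 2), where the difference lay between 0.13 and 0.16.

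Itgax, the integrin CD11c that marks most dendritic cells, also lay below that median, at 4.39, 4.11, 4.14, 4.56 and 4.16 in VD(-) marrow, against 4.59, 3.95, 4.39, 4.11 and 4.25 in VD(+) marrow (0.01, SE 0.13, p 0.919). Xcr1, the chemokine receptor of cDC1, the cross-presenting subset of conventional dendritic cells, had at most 3.31 in VD(-) marrow and 3.25 in VD(+) marrow. Clec9a, a receptor of cDC1 for dead cells, had 5.95, 6.06, 6.47, 5.71 and 6.27 in VD(-) marrow, against 6.48, 5.75, 6.14, 6.12 and 6.35 in VD(+) marrow (-0.08, SE 0.16, p 0.648). Batf3, the factor needed for cDC1, differed by -0.06 (SE 0.08, p 0.455).

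Irf8, a factor of cDC1, plasmacytoid cells and monocyte progenitors, had 8.23, 7.99, 7.93, 8.24 and 8.07 in VD(-) marrow, against 8.28, 7.90, 8.27, 7.93 and 8.04 in VD(+) marrow (0.01, SE 0.10, p 0.948). Siglech, a surface lectin of plasmacytoid dendritic cells, had 7.47, 8.04, 6.52, 7.57 and 7.01 in VD(-) marrow, against 7.42, 6.19, 7.52, 6.99 and 7.31 in VD(+) marrow. Its SD was 0.58 in VD(-) marrow and 0.54 in VD(+) marrow, wider than for any other member in VD(-) or VD(+) marrow. The difference of 0.24 had an SE of 0.31 (p 0.463), so a difference of either sign of that size was not detectable with these arrays.

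Among 19 further genes of conventional dendritic cells, 1 was lower and 0 were higher, with a median of -0.10. Wdfy4, which cDC1 need for cross-presentation and which B cells also express, was lower by 0.16 on the log2 scale (SE 0.07, p 0.0315). Flt3, the receptor of the growth factor of dendritic cells, had a difference of -0.32 (p 0.0576), Tlr3 of 0.21 (p 0.0670) and Rab7b of 0.23 (p 0.0846). Of 16 listed plasmacytoid genes 14 were measured, of which 1 was higher and 2 were lower, with a median of -0.03. Bst2, tetherin, had a difference of -0.30 (SE 0.10, p 0.0133) and Irf7, the factor behind type I interferon, of -0.53 (SE 0.23, p 0.0444), while the chemokine receptor Ccr9 had one of 0.43 (SE 0.17, p 0.0287). Spib, a factor of plasmacytoid and B cells, had a difference of -0.37 (p 0.0642).

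Interferon gamma is the main inducer of Ciita and of class I genes outside professional presenting cells. Of 14 listed genes of its pathway 11 were measured, of which 2 were higher and 0 were lower in VD(-) marrow, with a median of -0.01. They were the chemokines Cxcl9 (0.60, SE 0.22, p 0.0221) and Cxcl10 (0.45, SE 0.15, p 0.0139). Gbp3 and Ifngr2 were next by p and did not pass.

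Markers of cell types that carry these genes also differed between the groups. Of 16 listed B cell markers 14 were measured, of which 12 lay below 0 and the nominal p was under 0.05 for 4 of these (Fcer2a, Ms4a1, Cd22 and Pax5), with a median of -0.25 over the list. Fcer2a, CD23, a receptor for IgE found on mature B cells, also had an adjusted p of 0.0305 (-0.58, SE 0.08). The mean of the B cell markers ran from 6.95 to 7.40 on VD(-) arrays, against 7.25 to 7.64 on VD(+) arrays. VD(-) single sample 2 was lowest both in B cell markers (6.95) and in the mean of the class II members (7.21, against 7.37 to 7.58 on the other VD(-) arrays). VD(-) single sample 3 was next lowest in B cell markers (7.17) but highest of the VD(-) arrays in class II (7.58), so the 2 means did not move together on every array. The VD(+) arrays had class II means of 7.50 to 7.73. Of 18 listed macrophage markers 17 were measured, of which 3 (Cd68, Vsig4 and Timd4) were higher at a nominal p under 0.05, with a median of 0.16 and means of 7.48 to 7.97 on VD(-) arrays, against 7.10 to 7.64 on VD(+) arrays. In the monocyte list Ccr2 was higher and Nr4a1 lower, and in the T cell and neutrophil lists none of 9 and 12 genes passed by limma. The part of these cell types in the class II and Cd40 values was not tested.

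**Figure D3:**
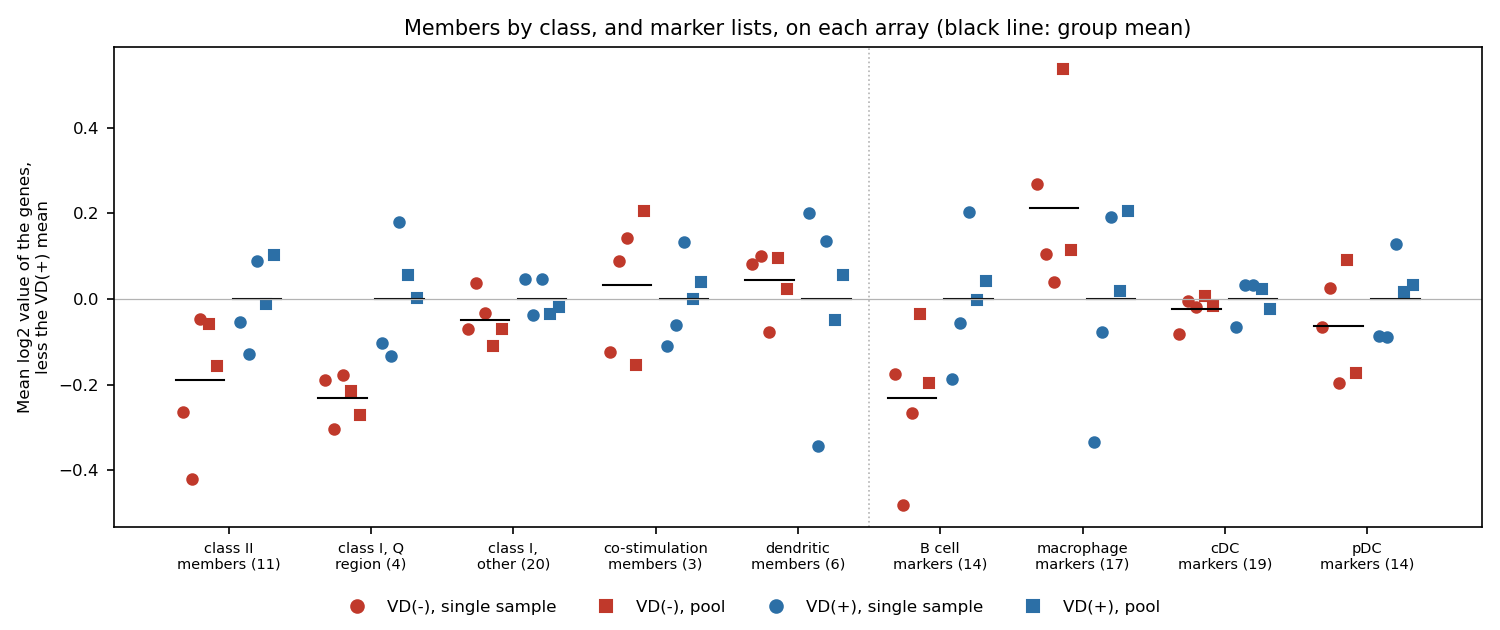
Mean log2 value of the genes of each list on each array, less the mean of the VD(+) arrays (y axis), for the members by class (left of the dotted line) and for marker lists (right of it), VD(-) left of VD(+). Circles are single samples, squares are pools, and black lines are group means. In the 4 Q region genes, of which 3 were lower one by one on these arrays, no VD(-) array reaches the VD(+) arrays. Class II, B cell and macrophage values of both groups overlap.

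Y-linked signal differed between the groups and moved with several members. The mean of 3 Y-linked genes was 6.64, 6.80 and 5.31 on VD(-) single sample 1, pool 1 and pool 2, and 2.25 to 2.56 on the other 7 arrays, which include all VD(+) arrays. Xist was 7.76, 8.14 and 9.83 on those 3 arrays and 10.08 to 10.33 on the other 7. The labels give both sexes for all samples, yet no VD(+) array had Y-linked signal. The sex of the cells and the group can therefore not be fully told apart. When VD(-) single samples 2 and 3 alone were set against the 5 VD(+) arrays, a choice added after the data were seen, the class II median was -0.22 with 10 of 11 genes below 0, and the class I median was 0.00 with 12 of 24 below 0. The class II mean was 7.21 on VD(-) single sample 2, the lowest of all arrays. On VD(-) single sample 3 it was 7.58, within the 7.50 to 7.73 of the VD(+) arrays. The class II fall in this fit thus rested mainly on VD(-) single sample 2. The Q region median stayed at -0.21. With the Y-linked and Xist level as a covariate, the medians were -0.22 for class II, -0.03 for class I and -0.23 for the Q region. The B cell marker median was -0.45 without the arrays with Y-linked signal and -0.46 with the covariate, beside -0.25 over all arrays, and the macrophage marker median was 0.04 and 0.01, beside 0.16 over all arrays. For the 19 further genes of conventional dendritic cells the median was 0.02 and 0.03, opposite in sign to the -0.10 over all arrays.

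Single genes also differed between these fits. H2-T24 had a difference of 0.08 without the arrays with Y-linked signal, opposite to that of all arrays. Cd80 had 0.47 without them (nominal p 0.00855) and 0.52 with the covariate (p 0.00482), beside 0.05 over all arrays. The T cell marker median was likewise 0.39 without these arrays and 0.47 with the covariate, beside 0.08 over all arrays. The part of T cell RNA in these Cd80 values was not tested. H2-Eb2 had -0.41 (p 0.00825) without them and -0.35 (p 0.0329) with the covariate, and Cd40 had -0.34 (p 0.0235) and -0.34 (p 0.00864). The nominal calls of the other 8 members were lost without these arrays, with only 2 VD(-) arrays left, and all 8 kept their sign. With the covariate, which keeps all arrays, H2-Oa (nominal p 0.0398), H2-Q4 (p 0.0252) and H2-Q5 (p 0.0327) kept their calls by limma. Ciita, H2-Q10, H2-M10.5, Cd86 and Zbtb46 lost theirs.

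**Figure D4:**
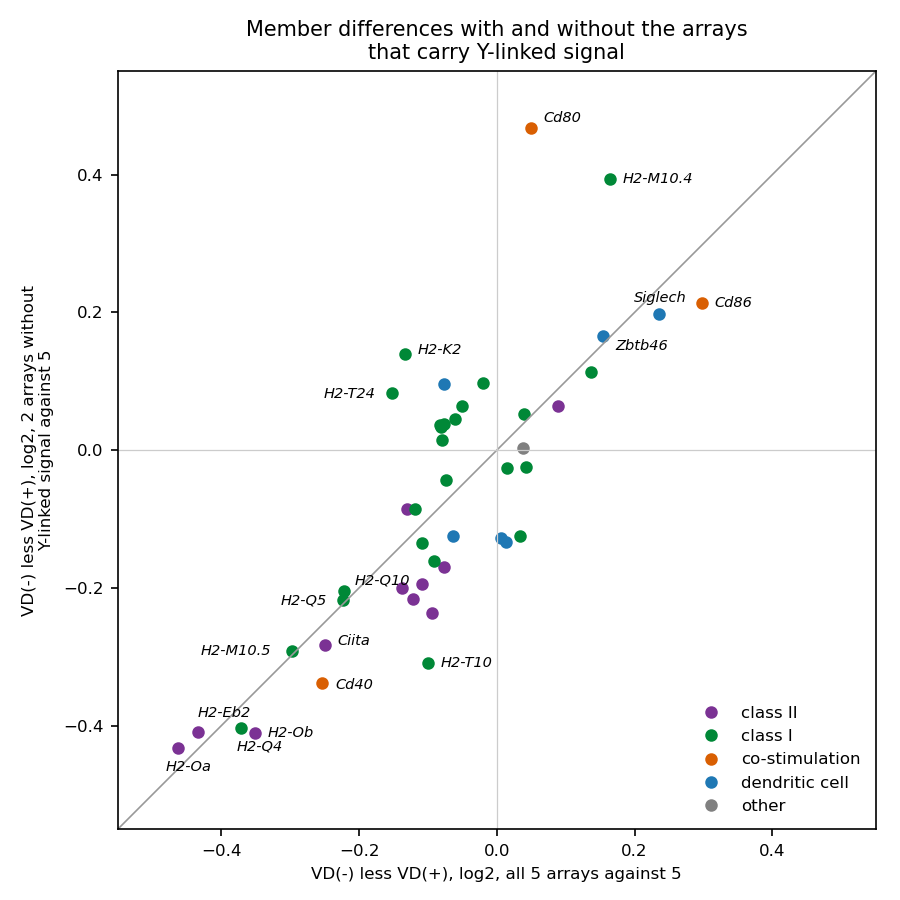
Log2 difference (VD(-) less VD(+)) of each member over all 5 arrays against 5 (x axis) and over the 2 VD(-) arrays without Y-linked signal against the 5 VD(+) arrays (y axis), coloured by class, with the line of equality. Class II genes stay below 0 apart from Ctss, and Cd80 stands out above the line at 0.05 over all arrays and 0.47 without the arrays that carry Y-linked signal.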

How the data were processed

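RNA of 10 BM samples was amplified, labelled and hybridised to 1-colour gene arrays. Values were deposited on the log2 scale, made by the authors with RMA in Partek Genomics Suite 6.6, which corrects background, brings arrays to one distribution and summarises probes. The genome build of the probe sets is not given in the sources used here, and 0 columns were left unused. All 35556 probe sets were fitted with limma 3.58.1 (lmFit, eBayes; R 4.3.3), two-sided, with Benjamini-Hochberg adjustment. Single genes also had an exact permutation test over the 252 splits of 10 arrays. Gene names came from the platform annotation, and all 45 members matched the RefSeq table by gene identifier. Array medians lay between 4.74 and 4.80, and the number of arrays limits the precision. Data were simulated for this comparison over 35556 probe sets, of which a small part was given a change. In them 40% of changes of 0.5 were found at an adjusted p under 0.05, 0% of changes of 0.25, and 56% of changes of 0.25 at a nominal p under 0.05. Each simulated probe set varied on its own, without variation shared between genes, so these rates are rough and may not hold for the real arrays.

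Members and lists were chosen with earlier results of these data known. Described in full were members with a nominal p under 0.05 or groups without overlap, the 3 with the highest mean per class and the defining genes of each class; H2-DMa, H2-Ob and H2-Q2 were added after their values were seen. From other lists the 4 smallest p-values were taken, and Fcer2a, Xcr1 and the RFX subunits are further examples. Alternatives were the methods' t-test, brighter probe sets, cyclic loess, array weights, a trended and robust spread, covariates for pools and Y-linked signal, single samples or pools alone, a replicate block, the mean of probe sets, each array left out, and arrays without Y-linked signal.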

Additional observations from a re-analysis of the deposited data

Results flagged for a closer look

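Of 90 groups of 5 arrays looked at (45 members in both groups), 3 held an array whose gap to its nearest neighbour was over 0.71 of the range of the group, where chance gives about 1 in 20. Ctss was 9.783 on VD(-) pool 1, above 9.624 to 9.653 on the other VD(-) arrays. H2-M3 was 7.339 on the same pool, above 7.022 to 7.11. H2-M10.4, a dim probe set, was 4.147 on VD(-) single sample 2, above 3.087 to 3.379.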

How the results depend on the processing

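Over 22 alternatives, all 10 members with a nominal p under 0.05 kept the sign of their difference in 218 of 218 fits. Of 975 pairs of member and alternative, 904 stayed on the same side of the threshold, 60 fell short of it, 11 newly passed it and 0 were reversed. Among members not called either way, 23 genes changed sign under at least 1 alternative, with 72 such sign changes in all. The count of members higher (2) was 1 with brighter probe sets, a trended and robust spread, pool as a covariate, Y-linked signal as a covariate, the mean of probe sets or the arrays without Y-linked signal, 0 with single samples or with pools alone, and 0 to 3 with an array left out, of which 3 was without VD(+) single sample 3. In both fits that deal with Y-linked signal the 1 higher member was Cd80, and neither Cd86 nor Zbtb46 passed. The count lower (8) was 2 with single samples alone, 4 with pools alone, 5 with the Y-linked covariate, 2 without the arrays with Y-linked signal, and 5 to 11 with an array left out; it was 5 without VD(+) single sample 3 and 5 without VD(-) pool 2. The co-stimulation median (0.05) was -0.12 with pools alone, 0.30 with the Y-linked covariate, 0.21 without the arrays with Y-linked signal and -0.0789 to 0.212 with an array left out, of which 0.212 was without VD(-) pool 1. The class II median (-0.13) lay between -0.19 and -0.08 with an array left out, the last without VD(-) single sample 2, and was -0.07 with pools alone. The class I median (-0.08) was -0.0318 with the covariate and -0.00418 without those arrays. The causes were not tested. With the shared replicate numbers as a replicate block, the count higher was 1 and the count lower 8, with H2-Ob newly below a nominal p of 0.05 (p 0.00137) and Ciita (p 0.0548) and Zbtb46 (p 0.103) no longer below it; same-numbered arrays did not deviate together (correlations -0.05 to 0.06), and only number 2 matched best with its own number, so they share only a number. In simulated data 0% of changes of 0.25 were found at an adjusted p under 0.05.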
